A study of Mus musculus with 36 samples.

Results

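Lungs of Notch3-/- and Notch4-/- mice were compared after 48 hr of ozone. All 6 arrays of these groups were used, 3 per genotype, out of 36 arrays in the series, and they were chosen by genotype and exposure alone. Each array held total left lung RNA of male mice, 7 to 13 weeks old, kept in 0.3 ppm ozone without a break. The study ran 3 arrays per group and reports no pooling of this RNA, so each array is read as 1 mouse. Notch3-/- mice carried the targeted allele Notch3tm1Grid and Notch4-/- mice the targeted allele Notch4tm1Grid, each on a mixed background. Both deletions were constitutive and present in the whole body. WT mice were B6129SF1/J, an F1 hybrid of the parental strains, so the effect of a deletion and that of the genetic background around it cannot be told apart. The other 30 arrays held the same genotypes in filtered air and after 6 or 24 hr of ozone, and WT mice at each of these points and at 48 hr. The labels give no duration for the air arrays, so whether they match the 48 hr arrays in time is not known.

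Notch receptors sit in the cell membrane. A ligand of the Jagged or Delta-like family on a neighboring cell triggers their cleavage, and the freed intracellular domain enters the nucleus, where it binds Rbpj and turns on target genes of the Hes and Hey families. In lung, Notch3 is best known in smooth muscle cells and pericytes of the vessel wall, and Notch4 in endothelium. Interferon-stimulated genes are turned on by type I and type II interferons through Stat proteins, and encode antiviral enzymes, guanylate-binding proteins, immunity-related GTPases and chemokines.

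Levels are given on the log2 scale relative to a probe set's own median in the 36 arrays, so 0 is the middle of the series and levels of different genes cannot be compared. A difference is Notch3-/- minus Notch4-/-, and 1 unit is a 2-fold difference. Of 45037 probe sets tested, 140 (0.311%) differed between the lines after 48 hr of ozone by limma at an adjusted p below 0.05. In Notch3-/- lungs 83 (0.184%) were higher and 57 (0.127%) lower. They included 125 probe sets with 1 gene symbol, which stand for 115 genes. The 3 Notch3-/- arrays lay wholly above or wholly below the 3 Notch4-/- arrays in all 140. The same held for 9.35% (above) and 6.04% (below) of all probe sets. Differences ranged from 0.34 to 3.80 in size, with 45 above 1 and 6 above 2. The median SE over all probe sets was 0.14. Without replicate 1 or 2 of the Notch3-/- group the count fell to 42 or 44, and without replicate 1 or 2 of the Notch4-/- group to 89 or 72. With each of the 6 arrays left out in turn, 28 of the 140 were called every time.

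Among the 48 hr arrays, 1 stood apart in its spread and its fat markers. Over all probe sets, replicate 2 of the Notch4-/- group at 48 hr had an SD of levels of 0.426, the highest of 36 arrays, which ran from 0.164. The median level of 12 fat markers such as Ucp1, Adipoq and Cidea, listed after the data were seen, was 3.30 there, against -0.69 to 1.58 in the other 5 knockout arrays at 48 hr. All 12 markers were uncalled between the lines, and their median difference was -0.49. Their part in the results was not tested. Without this array, 72 probe sets were called, 54 of them among the 140, and the interferon list kept 2 called members, with a median difference of 0.54. Outside 48 hr, the median level of 12 skeletal muscle markers was 3.88 in replicate 3 of the Notch3-/- air group. It was 1.07 in replicate 2 of the Notch3-/- group at 6 hr. Both arrays enter the line differences in other exposures, and their part there was not tested.

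The targeted genes separated the lines as labelled. The Notch3 probe set 1421965_s_at stood at -3.83, -3.71 and -3.22 in Notch3-/- lungs, against -0.24, -0.43 and 0.23 in Notch4-/- lungs. The difference was -3.44 ± 0.24 (SE, n = 3 per group, limma adjusted p = 1.11e-09), a 10.85-fold lower level in Notch3-/- mice. The second Notch3 probe set differed by -1.88 (adjusted p = 4.22e-08). The Notch4 probe set 1449146_at stood at -3.79, -3.42 and -4.05 in Notch4-/- lungs, against 0.10, 0.08 and -0.05 in Notch3-/- lungs. The difference was 3.80 ± 0.31 (adjusted p = 2.17e-08), a 13.9-fold higher level in Notch3-/- mice. The other Notch4 probe sets did not pass the test, with differences of 0.45 at 1456263_at (adjusted p = 0.212) and 0.00 at 1436901_at (adjusted p = 0.995). The sources used here do not say whether those probes lie outside the deleted part.

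Other genes of the Notch pathway showed no called difference. Of 26 measured receptors, ligands, processing enzymes and targets, Notch3 was the 1 called gene when each was read at 1 probe set, and the median difference was 0.07, beside 0.01 over 18193 genes. Over all genes 0.346% were called, so a list of this size would mostly hold no called member besides a target. The largest value among the ligands was 0.45 ± 0.36 for Dll1 (adjusted p = 0.621). Dtx1, a modulator of Notch signaling, differed by 0.41 ± 0.12 (adjusted p = 0.153). The study's text names 19 other genes measured here, among them Tnf, Cxcl2, Il33, Myd88, Traf6 and several Trim genes. None was called at 48 hr at the 1 probe set read for each, and their differences ran from -0.36 (Trim6, adjusted p = 0.337) to 0.45 (Dll1). The study described most of these genes at other times, or against air or WT, and some by qRT-PCR. A comparison of the knockout lines at 48 hr does not test those statements. The inflammatory cytokine Tnf differed by -0.18 ± 0.18 (adjusted p = 0.698).

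Several interferon-stimulated genes were higher in Notch3-/- lungs. Of 28 measured members of the list, 6 (21.4%) were called higher and 0 lower, beside 0.346% of all genes called at the same 1 probe set per gene. They were Oasl2, Cxcl10, Ifit1, Irgm1, Gbp2 and Irf7. The list was chosen with earlier results of these data known, so its standing beside all genes is not an independent test. The median difference over the 28 genes was 0.50, and 26 of the 28 differences were positive. In 15 of 28 (53.6%) the 3 Notch3-/- arrays all lay above the 3 Notch4-/- arrays, beside 10.4% of all genes. The share was also above that of all genes in many other lists. It was 25% or more for macrophage (31.6%), T cell (31.2%), antigen presentation (29.2%), matrix (29.2%), alveolar type 2 cell (27.3%) and complement genes (25%). In further lists it lay between 11.1% (NK cell) and 18.8% (circadian clock). Their part in the interferon result was not tested. The list's median level was 0.37, 0.30 and 0.26 in the 3 Notch3-/- arrays and -0.20, -0.14 and -0.23 in the 3 Notch4-/- arrays. WT arrays at 48 hr stood at -0.33, -0.29 and -0.36. The list's median difference from WT was 0.70 in Notch3-/- lungs and 0.09 in Notch4-/- lungs. With any 1 of the 6 arrays left out, the list's median stayed between 0.39 and 0.55, while the number of called members moved from 2 to 7. It was 3 without replicate 1 and 2 without replicate 2 of the Notch3-/- group, and 3, 2 and 3 without replicates 1, 2 and 3 of the Notch4-/- group. With Tukey's test in place of limma 0 members were called, and with the 6 compared arrays fitted alone 1 was.

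**Figure D1:**
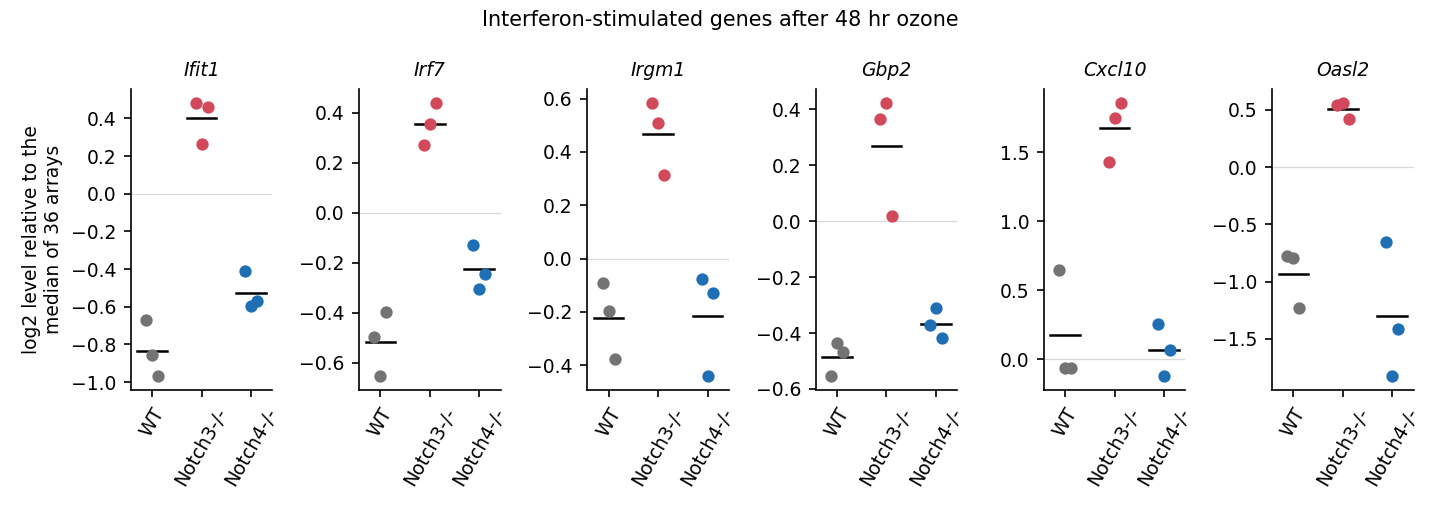
Log2 level (relative to the median of 36 arrays) of the 6 called interferon-stimulated genes after 48 hr of ozone in WT, Notch3-/- and Notch4-/- lungs. Each point is 1 array and each bar the mean of 3. In every panel the 3 Notch3-/- points lie above the 3 Notch4-/- points, and the vertical scale differs between panels.

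The start sites of these genes are shown because most of the called members carry the short core of the interferon-stimulated response element, the DNA element bound by interferon-activated Stat and Irf factors. The motif searched was GAAANNGAAA or its reverse complement TTTCNNTTTC, on both strands, in the 250 bases upstream of each start site in RefSeq (GRCm38.p6). The lines read 5′ to 3′ on the strand of the gene and end next to the start site, with the matches in capitals.
Ifit1 (chr19:34640639-34640888, plus strand): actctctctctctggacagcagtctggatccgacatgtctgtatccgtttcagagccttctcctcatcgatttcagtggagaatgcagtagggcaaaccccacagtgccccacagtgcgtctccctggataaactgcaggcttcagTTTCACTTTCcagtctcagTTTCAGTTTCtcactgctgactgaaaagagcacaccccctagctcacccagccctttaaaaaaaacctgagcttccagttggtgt
Cxcl10 (chr5:92348890-92349139, minus strand): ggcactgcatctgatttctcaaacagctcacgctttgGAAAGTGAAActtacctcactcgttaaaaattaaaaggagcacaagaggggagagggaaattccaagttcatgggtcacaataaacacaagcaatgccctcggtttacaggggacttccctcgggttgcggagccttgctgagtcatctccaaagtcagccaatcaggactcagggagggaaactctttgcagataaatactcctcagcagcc
Gbp2 (chr3:142620413-142620662, plus strand): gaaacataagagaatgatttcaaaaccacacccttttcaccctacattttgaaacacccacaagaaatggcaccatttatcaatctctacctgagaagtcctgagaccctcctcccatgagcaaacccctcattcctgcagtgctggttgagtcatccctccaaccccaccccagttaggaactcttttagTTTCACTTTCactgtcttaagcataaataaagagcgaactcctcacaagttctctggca
Irgm1 (chr11:48871421-48871670, minus strand): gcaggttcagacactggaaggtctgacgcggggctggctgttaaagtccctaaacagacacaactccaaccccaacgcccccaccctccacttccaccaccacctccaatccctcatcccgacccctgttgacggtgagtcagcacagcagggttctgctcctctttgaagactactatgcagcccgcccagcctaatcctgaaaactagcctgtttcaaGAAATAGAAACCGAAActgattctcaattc
Ifit1 held 2 separate matches, 104 and 85 bases before the start site, and Irgm1 held 2 that overlap. Oasl2 and Irf7 held no such letters in this window. Among the 6 called members 4 (66.7%) held a match, beside 9 of 15 (60%) uncalled members with a promoter entry and 3.46% of 27025 genes. A match describes letters in this window and not a bound site.

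Oasl2, related to the enzymes that sense double-stranded RNA, showed the largest positive difference of the list when each gene was read at 1 probe set. It stood at 0.54, 0.56 and 0.42 in Notch3-/- lungs and at -0.65, -1.83 and -1.41 in Notch4-/- lungs. The difference was 1.81 ± 0.26 (adjusted p = 0.00048), 3.5-fold. Cxcl10, a chemokine that draws T cells and NK cells, stood at 1.43, 1.75 and 1.86 in Notch3-/- lungs and at 0.25, -0.12 and 0.07 in Notch4-/- lungs. Its difference was 1.61 ± 0.30 (adjusted p = 0.01), 3.06-fold. Ifit1, which binds foreign RNA, stood at 0.48, 0.26 and 0.46 in Notch3-/- lungs and at -0.41, -0.60 and -0.57 in Notch4-/- lungs. Its difference was 0.93 ± 0.13 (adjusted p = 0.00048), and the WT arrays lay lower still, between -0.97 and -0.67.

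The remaining called members differed by less. Irgm1, an immunity-related GTPase, differed by 0.68 (adjusted p = 0.0416), Gbp2, a guanylate-binding protein, by 0.64 (adjusted p = 0.041), and Irf7, a transcription factor that amplifies interferon production, by 0.58 (adjusted p = 0.0371). Both Gbp2 probe sets were called. Several uncalled members had values of like size with wider error. Igtp differed by 0.99 ± 0.23 (adjusted p = 0.0553) and Oas1a by 0.78 ± 0.19 (adjusted p = 0.0664), each with no overlap of the groups. Rsad2 differed by 0.88 (adjusted p = 0.337). Ifit3, a close relative of Ifit1, differed by 0.05 ± 0.15 (adjusted p = 0.916).

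Some called genes outside the list are given here for their own values and add nothing to its count. Gbp6, a guanylate-binding protein, at 1447927_at stood at 0.86, 0.96 and 0.35 in Notch3-/- lungs and at -0.49, -0.65 and -0.86 in Notch4-/- lungs, a difference of 1.39 ± 0.24 (adjusted p = 0.00443). Irgm2, an immunity-related GTPase, stood at 0.77, 0.72 and 0.46 against -0.43, -0.50 and -0.49, a difference of 1.12 ± 0.21 (adjusted p = 0.00966). Rtp4 differed by 0.66, Rnf213 by 0.62 and Parp14 by 0.52, of which Rtp4 and Parp14 were picked after their values were seen. Xaf1, a member of the list linked to cell death, gave opposite values at its 2 probe sets. At 1443698_at the difference was 1.99 ± 0.38 (adjusted p = 0.0116), while at 1443621_at it was -3.49 ± 0.88 (adjusted p = 0.0883) with overlapping groups, so no direction is given for this gene.

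The interferon group was not set apart in the other exposures. The list's median difference was 0.13 in air, 0.05 after 6 hr and 0.01 after 24 hr of ozone, none of which share an array with the 48 hr comparison. None of the 8 called probe sets of list genes, among them a second one of Gbp2 and one of Xaf1, was called in the mean line difference over air, 6 hr and 24 hr, in which 308 probe sets (0.684%) were called. From air to 48 hr the list's median change was 0.07 in Notch3-/- lungs and -0.28 in Notch4-/- lungs. Over all probe sets, 2.46% changed from air to 48 hr in Notch3-/- lungs and 1.75% in Notch4-/- lungs. Ifit1 changed by -0.66 in Notch4-/- lungs (adjusted p = 0.00691) and by 0.07 in Notch3-/- lungs (adjusted p = 0.89). Oasl2 changed by -1.13 in Notch4-/- lungs (adjusted p = 0.0169) and by 0.10 in Notch3-/- lungs (adjusted p = 0.932). For Cxcl10 there was a rise of 2.20 in Notch3-/- lungs (adjusted p = 6.52e-05) and a change of 0.10 in Notch4-/- lungs (adjusted p = 0.932).

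A direct test of whether the line difference at 48 hr departed from its mean over air, 6 hr and 24 hr called 8 probe sets (0.0178%). The count was 3 without replicate 1 and 5 without replicate 3 of the Notch3-/- group, and 15 and 13 without replicates 1 and 2 of the Notch4-/- group. Among the 8, Ifit1 had a departure of 0.97 ± 0.15 (adjusted p = 0.00881) and Rnf213 one of 0.78 ± 0.14 (adjusted p = 0.0264). At 24 hr their line differences had the opposite sign, which adds to the departures. They were -0.35 (adjusted p = 0.252) for Ifit1 and -0.43 (adjusted p = 0.115) for Rnf213. Another 4 of the 8 were Trim probe sets, with no called line difference at 48 hr and their largest one at 6 hr. The departure was 1.85 for Cxcl10 and 0.76 for Irf7 (adjusted p = 0.0569 for each) and 1.44 for Oasl2 (adjusted p = 0.102). Against air alone, with 3 arrays in each of 4 groups, the test of the 2 ozone responses by limma called 0 probe sets (0%), with 1784 at an unadjusted p below 0.05, and 6 without replicate 2 of the Notch4-/- group. In that test Ifit1 differed by 0.74 (adjusted p = 1) and Cxcl10 by 2.10 (adjusted p = 0.56). Without replicate 1 of the Notch3-/- group, adjusted p for the departure of Ifit1 rose to 0.0922, and without replicate 3 to 0.0534. The departure of Rnf213 kept its call without replicate 1 of the Notch4-/- group and lost it without any other of the 6 arrays, with adjusted p from 0.0679 to 0.141. After another quantile normalization the departures of Ifit1 (adjusted p = 0.0629) and Rnf213 (adjusted p = 0.178) lost their calls. With the 24 knockout arrays alone Rnf213 lost its call (adjusted p = 0.051) and Ifit1 kept it (adjusted p = 0.00718).

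**Figure D2:**
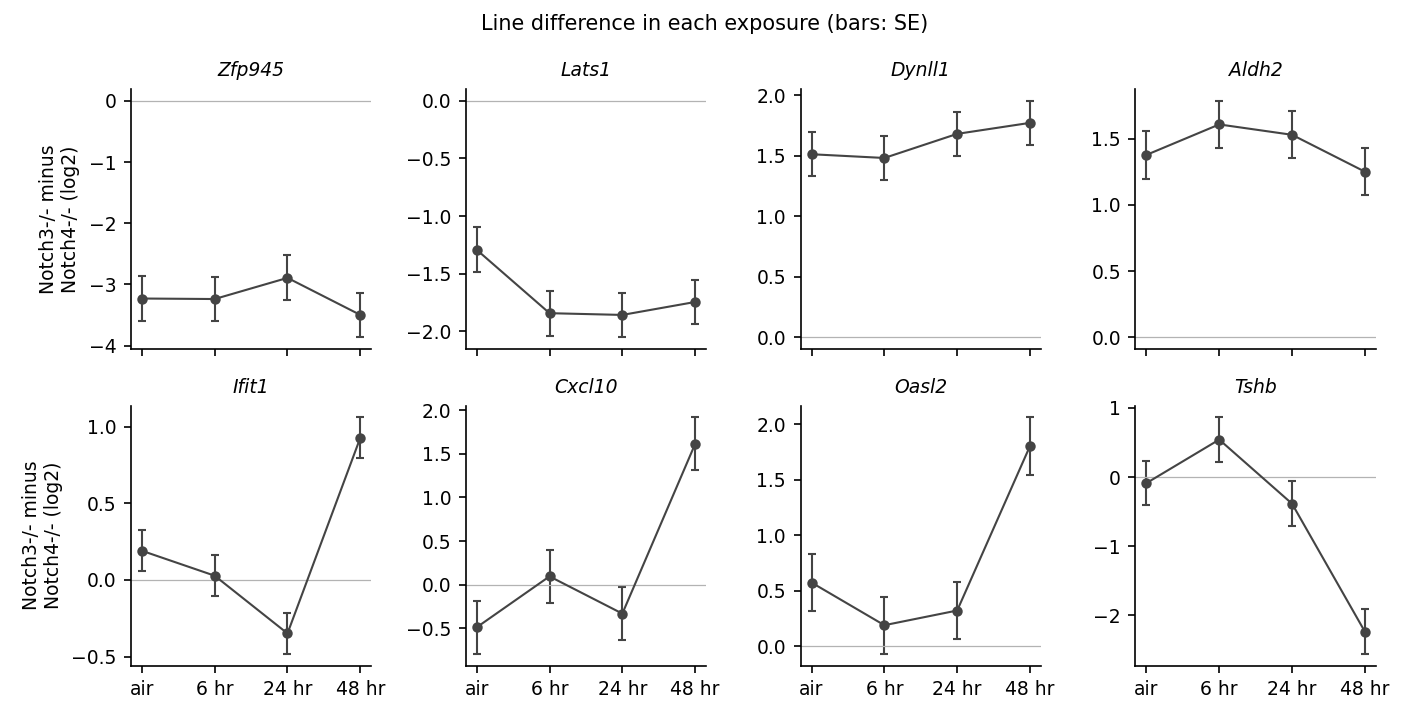
Line difference (Notch3-/- minus Notch4-/-, log2, with SE) in air and after 6, 24 and 48 hr of ozone for 8 called genes. Each point compares 3 with 3 arrays. Zfp945, Lats1, Dynll1 and Aldh2 lie on 1 side of 0 in every exposure, while Ifit1, Cxcl10, Oasl2 and Tshb lie farthest from 0 at 48 hr.

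Tshb and Akr1c14 were lower in Notch3-/- lungs at 48 hr. Tshb encodes the beta subunit of thyroid-stimulating hormone, a pituitary hormone. It stood at -0.58, -0.16 and -0.08 in Notch3-/- lungs, at 1.95, 2.30 and 1.63 in Notch4-/- lungs and at 0.68, 1.32 and 1.51 in WT lungs. The groups of the 2 knockout lines did not overlap. The difference was -2.23 ± 0.32 (adjusted p = 0.00048), a 4.7-fold lower level. In air the difference was -0.09, and from air to 48 hr Tshb rose by 3.45 in Notch4-/- lungs (adjusted p = 8.83e-07) and by 1.30 in Notch3-/- lungs (adjusted p = 0.022). The departure from the other exposures was -2.26 ± 0.37 (adjusted p = 0.0114). This call was lost without replicate 1 of the Notch3-/- group (adjusted p = 0.127) or replicate 2 of the Notch4-/- group (adjusted p = 0.0594), with the 24 knockout arrays alone (adjusted p = 0.108) and after another quantile normalization (adjusted p = 0.0958). Akr1c14, a hydroxysteroid dehydrogenase, differed by -0.80 ± 0.15 (adjusted p = 0.0114) at 48 hr and by 0.50 (adjusted p = 0.145) at 24 hr. Its departure from the other exposures was -1.07 ± 0.18 (adjusted p = 0.0114). That call was lost without replicate 1 (adjusted p = 0.127) or 2 (adjusted p = 0.0557) of the Notch3-/- group and without replicate 2 of the Notch4-/- group (adjusted p = 0.0605).

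Many of the called differences were also present in the other exposures. Of the 140 probe sets, 57 (40.7%) were also called in the same direction over air, 6 hr and 24 hr, and 0 in the opposite direction. Over all probe sets, 0.577% had the same sign and a call in that mean. The share was 27.7% for probe sets higher in Notch3-/- lungs (23 of 83) and 59.6% for those lower (34 of 57). The 57 became 26 and 28 without replicates 1 and 2 of the Notch3-/- group, and 36 without replicate 1 or 2 of the Notch4-/- group. In 91 of the 140 the sign was the same in air, at 6 hr and at 24 hr, beside 5540 of all 45037 probe sets. The 140 include called probe sets of both targeted genes.

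**Figure D3:**
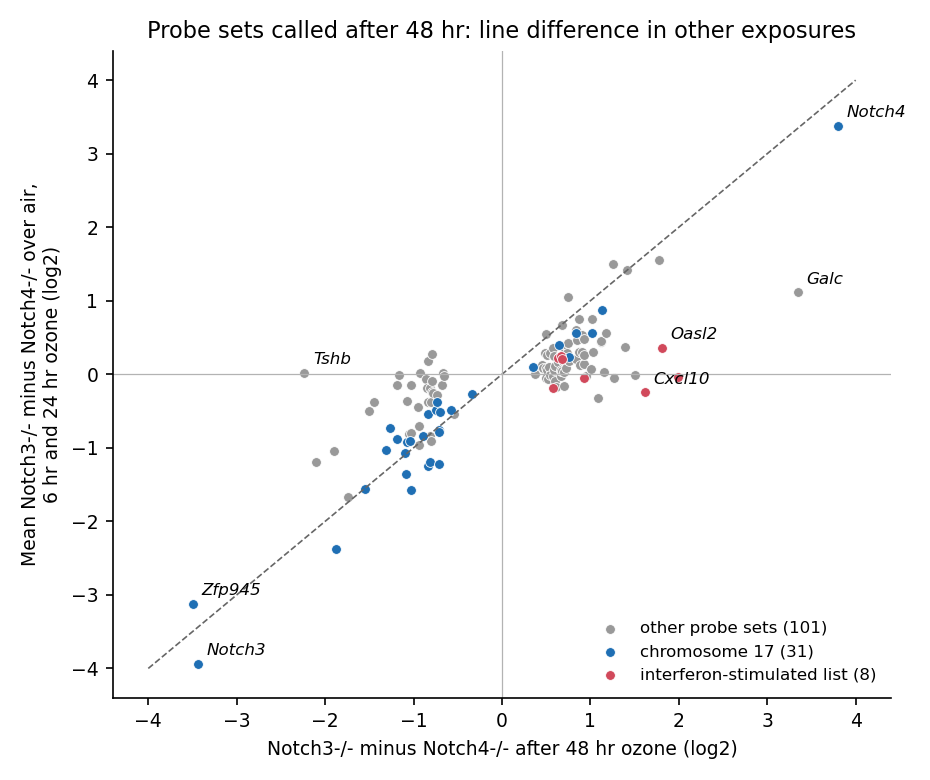
Each point is 1 of the 140 probe sets called at 48 hr, with the log2 line difference at 48 hr on the horizontal axis and the mean line difference over air, 6 hr and 24 hr on the vertical axis; the dashed line marks equal values. The 31 probe sets on chromosome 17 lie mostly along the dashed line, and the 8 of the interferon-stimulated list have a median size of 0.22 on the vertical axis.

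Called genes were unevenly placed. Chromosome 17, which carries both Notch3 and Notch4, held 25 called genes of 834 measured (3%), beside 0.638% of 18032 genes over all chromosomes. The count was 13 and 14 without replicates 1 and 2 of the Notch3-/- group and 14 without replicate 2 of the Notch4-/- group. Of its 31 called probe sets, 29 were also called the same way over the other exposures. Chromosome 5 followed with 22 of 1122 genes (1.96%), then chromosome 3 with 12 of 913 (1.31%) and chromosome 11 with 15 of 1443 (1.04%). No gene was called on chromosomes 6 and 14, with 992 and 641 genes measured.

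Near the targeted genes themselves the share was closer to that of all genes. Among the 100 measured genes on each side of Notch3 or Notch4, 274 genes in all without the targets, 3 (1.09%) were called. These were Glo1, which detoxifies methylglyoxal, Dnah8, a dynein heavy chain, and H2-Aa, an MHC class II chain. All 3 called Glo1 probe sets were lower in Notch3-/- lungs. At 1424108_at the Notch3-/- arrays stood at -0.08, 0.01 and 0.31, the Notch4-/- arrays at 0.89, 0.91 and 0.96, and the WT arrays between -0.07 and 0.05. The difference was -0.84 ± 0.14 (adjusted p = 0.00426), with the Notch4-/- line away from WT. Dnah8 differed by -1.07 (adjusted p = 0.0101) and H2-Aa by 0.36 (adjusted p = 0.0484).

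The densest stretch of 200 measured genes on chromosome 17, found by looking for it, held 16 called genes (8%) and lay 146 to 305 measured genes from Notch3 towards the chromosome start. It ran from Dynlt1f, a dynein light chain, to Telo2 and included 6 zinc-finger genes, Zfp942, Zfp944, Zfp945, Zfp994, Zfp758 and Zfp40. Zfp945 at 1437128_a_at stood at -2.67, -2.21 and -2.26 in Notch3-/- lungs, at 1.08, 1.57 and 0.71 in Notch4-/- lungs and between -0.19 and 0.98 in WT lungs. The difference was -3.50 ± 0.37 (adjusted p = 2.33e-06) at 48 hr, beside -3.23 in air, -3.24 at 6 hr and -2.89 at 24 hr. A second Zfp945 probe set, 1441792_at, was called the other way at 0.83 (adjusted p = 0.0048), so the gene as a whole has no direction here. Zfp994 differed by -1.55 ± 0.17 (adjusted p = 6.81e-06) and Zfp942 at 1454402_at by -1.09 ± 0.20 (adjusted p = 0.00748). Zfp40 at 1435984_at differed by -1.31 and Dynlt1f by -1.09. Riok2, a kinase of ribosome assembly, at 1436684_a_at differed by -1.27 (adjusted p = 0.00433). Farther on, Tmem178, a membrane protein, was higher in Notch3-/- lungs by 1.13 ± 0.13 (adjusted p = 1.7e-05).

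**Figure D4:**
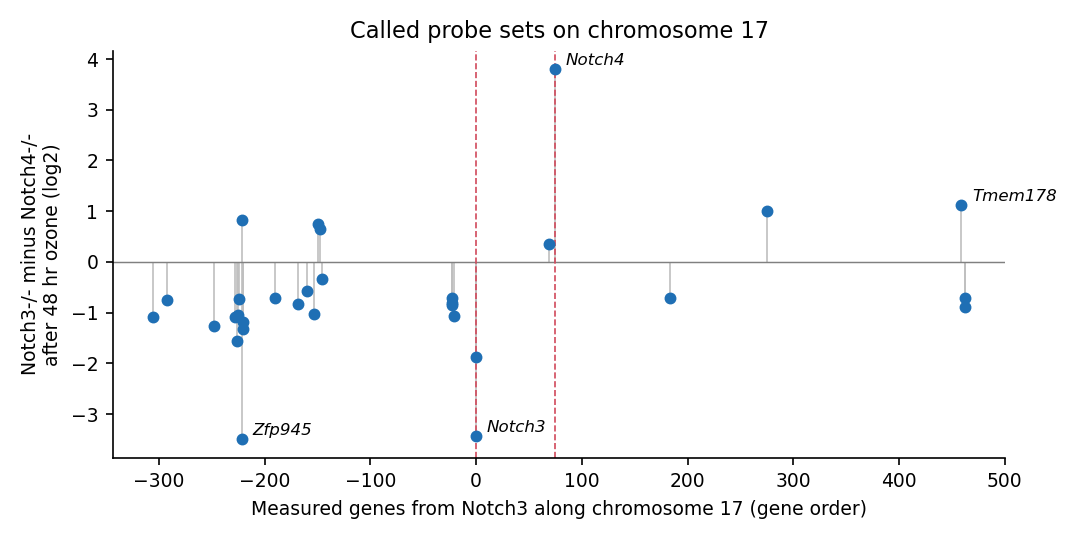
Log2 line difference at 48 hr of the called chromosome 17 probe sets against their place in gene order, counted in measured genes from Notch3 with negative values towards the chromosome start; dashed lines mark Notch3 and Notch4. A group of called genes lies 146 to 305 genes before Notch3, and 3 genes besides the targets lie within 100 genes of either.

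On chromosome 5 the densest stretch of 200 measured genes also held 16 called genes (8%). It included Dynll1, Aldh2, P2rx7, Ssh1 and 1500011B03Rik, and also Oasl2 of the interferon list. Dynll1, a dynein light chain, at 1440278_at stood at 0.86, 0.51 and 0.56 in Notch3-/- lungs, at -1.20, -0.89 and -1.29 in Notch4-/- lungs and near 0 in WT lungs. The difference was 1.77 ± 0.18 (adjusted p = 1.94e-06), and it was 1.51 in air. The mitochondrial aldehyde dehydrogenase Aldh2 at 1457155_at differed by 1.25 ± 0.18 (adjusted p = 0.00048) and by 1.38 in air. 1500011B03Rik differed by -1.90 ± 0.25 (adjusted p = 0.000114) at 1456857_at. At its other probe set, 1428370_at, it differed by 0.28 (adjusted p = 0.375) at 48 hr and was called higher over air, 6 hr and 24 hr at 0.35 (adjusted p = 0.0142), so no direction is given for this gene. On chromosome 10, Lats1, a kinase of the Hippo pathway, at 1427679_at stood at -0.82, -0.98 and -1.13 in Notch3-/- lungs and at 0.59, 0.46 and 1.26 in Notch4-/- lungs. Its difference was -1.75 ± 0.19 (adjusted p = 6.81e-06), with WT lungs between the lines.

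Several of these differences stood at 1 of a gene's probe sets. Among the 115 called genes, 78 had more than 1 probe set. In 70 of these no other probe set of the gene was called, in 7 another was called the same way, and in 1 (Zfp945) the opposite way. The other Dynll1 probe sets differed by -0.07, 0.01 and -0.07, and the other Lats1 probe set by 0.26. The other Aldh2 probe sets ran from -0.68 to 0.00. The other Zfp942 probe sets differed by -0.09 and 0.00, and those of Riok2 by -0.49 to -0.11. A second of the 4 Zfp40 probe sets was called lower, at -1.19. The other Ssh1 probe sets differed by 0.10 to 0.50 and those of Ide by 0.69 to 1.01, none of them called. Tspan18 differed by -0.55 and 0.60 at its other probe sets.

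The remaining large differences included those of Galc, Xaf1 and Zfp39, which were uneven across mice. Galc, a lysosomal enzyme, at 1452907_at stood between 0.93 and 1.004 in Notch3-/- lungs and at -3.61, 0.18 and -3.72 in Notch4-/- lungs. The difference was 3.35 ± 0.72 (adjusted p = 0.0352), with 1 Notch4-/- array far above the other two, and the other Galc probe sets differed by -0.25 and 0.12. Replicate 2 of the Notch4-/- group was also far above replicates 1 and 3 at Xaf1 (-0.06 against -2.24 and -2.92) and at Zfp39 (-0.02 against -1.60 and -1.36), which differed by 1.27 ± 0.26 (adjusted p = 0.0214). At the other Xaf1 probe set it stood at -0.01, with replicates 1 and 3 at 5.14 and 4.85 and the Notch3-/- arrays between -0.31 and 0.04. Trim16 at 1460629_at differed by 1.51 ± 0.25 (adjusted p = 0.00367), H60c, a ligand of the NK cell receptor Klrk1, by 1.42 ± 0.24 (adjusted p = 0.00424), Ssh1 at 1438253_at by 1.18, and the insulin-degrading enzyme Ide at 1423121_at by 1.12. Samd5 at 1437403_at differed by -2.11 ± 0.44 (adjusted p = 0.0266), A930005H10Rik by -1.45 ± 0.22 (adjusted p = 0.00109), and Hsd3b2, which makes steroid hormones, by -1.50 ± 0.34 (adjusted p = 0.0466). Tspan18 at 1429856_at lay just inside the threshold with a difference of -1.17 ± 0.27 (adjusted p = 0.05).

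Set against WT at 48 hr, 94 of the 140 probe sets lay farther from WT in Notch3-/- lungs and 46 in Notch4-/- lungs. Of the 140, 46 differed from WT in Notch3-/- lungs (1.07% of all probe sets did), 14 in Notch4-/- lungs (0.471%), 1 of these in both, and 81 in neither. Both comparisons use the same WT arrays, and also the knockout arrays by which the 140 were called. Shares above those of all probe sets are therefore built in. Over all probe sets, the median size of the difference from WT was 0.126 in Notch3-/- lungs and 0.113 in Notch4-/- lungs. Ifit1 was 1.24 above WT in Notch3-/- lungs (adjusted p = 1.11e-06) and 0.31 above it in Notch4-/- lungs (adjusted p = 0.518). Dynll1 at 1440278_at was below WT in Notch4-/- lungs, with a difference of -1.08 (adjusted p = 0.00143), and 0.69 above it in Notch3-/- lungs (adjusted p = 0.0632).

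Read at 1 probe set per gene, 30 of the 32 lists held no called member, among them neutrophil, macrophage, T cell, B cell, NK cell, endothelial, smooth muscle, club, ciliated and alveolar cell markers, antigen presentation, antioxidant genes, mitosis and DNA replication. Over all genes 0.346% were called this way, and at that share most lists of this size would hold no called member. The absence of calls therefore says little about these cell types and pathways. Medians of the lists other than the interferon list lay between -0.21 (cardiac muscle) and 0.38 (NK cells). H2-Aa of the antigen presentation list and Trim16 of the Trim family list were called at another of their probe sets, and differed by 0.46 (adjusted p = 0.295) and 0.43 (adjusted p = 0.282) at the one read here. In whole lung, fewer cells of a type and less RNA per cell cannot be told apart. The genes with the smallest p in these lists did not pass the test. The B cell chemokine Cxcl13 differed by -1.45 ± 0.37 (adjusted p = 0.0875), the neutrophil receptor Fpr2 by 0.78 ± 0.20 (adjusted p = 0.0941) and neutrophil elastase, Elane, by -0.44 ± 0.11 (adjusted p = 0.0864). Nkg7, a granule protein of NK cells, differed by 0.72 ± 0.27 (adjusted p = 0.276). Reg3g, an airway antimicrobial lectin, stood at 4.95, 4.25 and -1.03 in Notch3-/- lungs and at 0.09, 1.61 and -0.31 in Notch4-/- lungs, a difference of 2.26 ± 1.76 (adjusted p = 0.61) that its spread between mice covers.

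**Figure D5:**
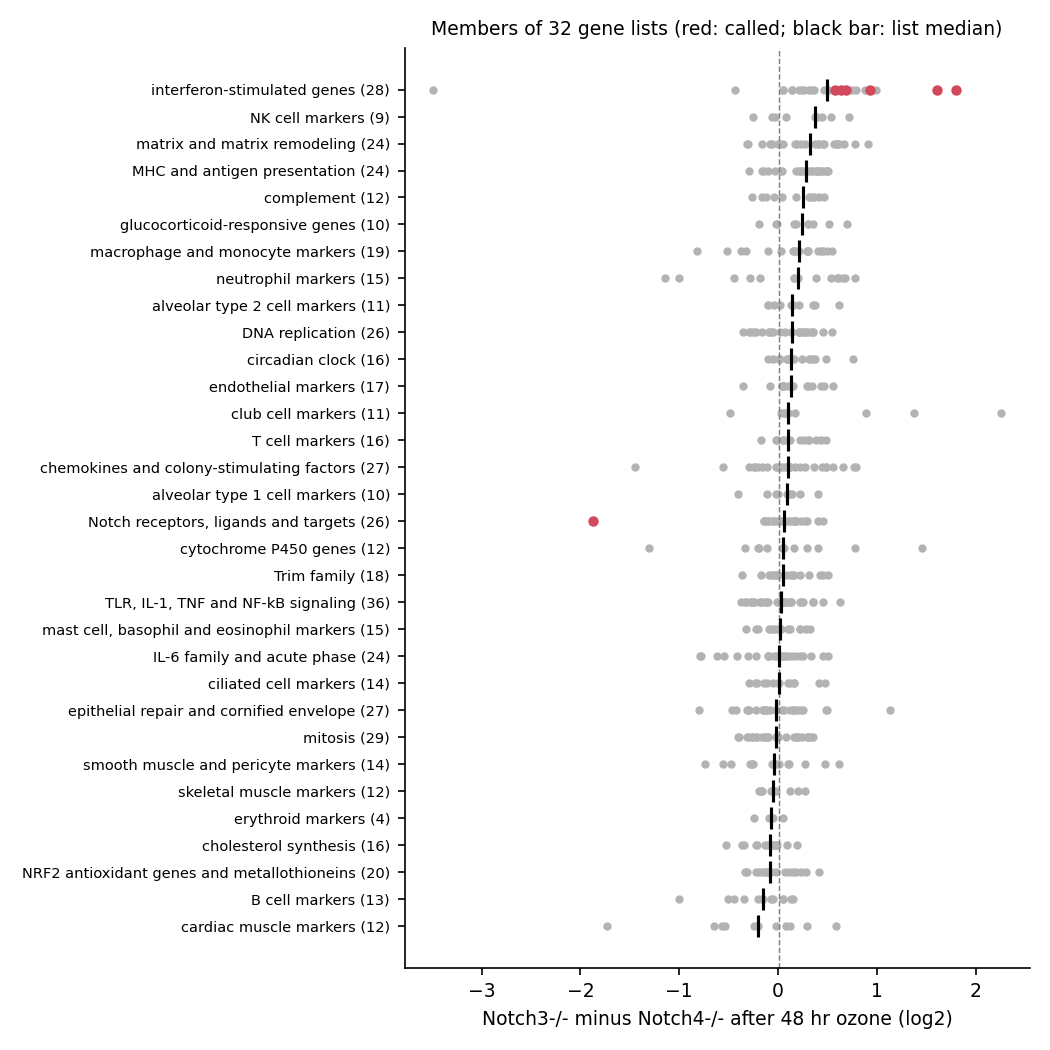
Log2 line difference at 48 hr of the measured members of 32 gene lists (number measured in brackets), 1 probe set per gene; grey points did not pass the test, red points did, the black bar is the list's median and the dashed line the median of all genes. The interferon-stimulated list stands highest with a median of 0.50 and 6 red points, and the Notch list holds 1 red point, Notch3. The lists were chosen with earlier results of these data known.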

How the data were processed

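Left-lung RNA was hybridised to 36 Affymetrix Mouse Genome 430 2.0 arrays in 12 groups of 3, with each array read as 1 mouse. Per the study's methods RMA normalization was done in GeneSpring GX 11.0. The authors deposited log2 levels, each probe set centred on its median over the 36 arrays (largest remaining median 5e-07 in size). Brightness and detection can therefore not be read from them. The number of arrays limits the precision. Of 45101 probe sets, 64 controls were left out and 45037 tested. A probe-gene table gave 34945 probe sets 1 symbol, 932 several and 9160 none, and 34741 matched a RefSeq gene ID. No probe set with several symbols was named.

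All arrays entered 1 limma fit (limma 3.58.1, R 4.3.3) with a mean per group (24 residual degrees of freedom). Benjamini-Hochberg adjustment ran over all probe sets of a comparison, with 0.05 as the threshold. Named genes were the 15 largest differences each way among called probe sets whose groups did not overlap, the targeted genes, the largest departures from other exposures, list members with the smallest p, called genes within 100 measured genes of a target and genes named in the study's text. In lists and over genes, each gene was read at 1 probe set, chosen by probe set type and number. The members and lists were chosen with earlier results of these data known. Tables and figures were made with Python 3.11.15, pandas 2.3.3 and matplotlib 3.10.9. Noise was simulated with each probe set's own spread, the same in all arrays and independent between probe sets. In such data the test found 17.9% of changes of 0.5, 86.6% of changes of 1 and 100% of changes of 2 on the log2 scale. It made 6 false calls among 142. The real arrays differed in spread (SD of levels from 0.164 to 0.426), so these shares need not hold for them.

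Alternatives were stricter thresholds, ANOVA with Tukey's test as in the study's methods, a robust prior, fewer arrays in the fit, array weights, another scaling, a filter on probe sets of low spread, the replicate number as a block, and leaving out each of the 6 arrays. In the main fit, replicate numbers were not used to pair the samples.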

Additional observations from a re-analysis of the deposited data

Results flagged for a closer look

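The line difference at 48 hr departed from its mean over air, 6 hr and 24 hr, by a limma test of that departure, in 8 probe sets. Tshb departed by -2.26 (adjusted p = 0.0114), Akr1c14 by -1.07 (adjusted p = 0.0114), Ifit1 by 0.97 (adjusted p = 0.00881) and Rnf213 by 0.78 (adjusted p = 0.0264). In these 4 the line difference at 48 hr was itself called, in the same direction. At 24 hr the line difference had the opposite sign in Akr1c14 (0.50), Ifit1 (-0.35) and Rnf213 (-0.43), and the same sign in Tshb (-0.38). None of these was called at 24 hr (limma adjusted p from 0.115 to 0.624). The departure lost its call without 1 of the 6 arrays for 2 arrays in Tshb (adjusted p up to 0.127), 3 in Akr1c14 (up to 0.127), 2 in Ifit1 (up to 0.0922) and 5 in Rnf213 (up to 0.141). After another quantile normalization the call was also lost in Tshb (adjusted p = 0.0958), Ifit1 (adjusted p = 0.0629) and Rnf213 (adjusted p = 0.178).

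The other 4 belong to 3 Trim genes of chromosome 7, and in none of them was the line difference at 48 hr itself called. Genes of this family are near copies of each other, so their probes may share targets. Trim30d departed by 2.51 at 1435665_at (adjusted p = 1.35e-07) and by 1.17 at 1438716_at (adjusted p = 0.0139), Trim34a by 1.85 (adjusted p = 0.00272) and Trim12a by 1.77 (adjusted p = 0.00272). The departure at 1438716_at lost its call without replicate 1 (adjusted p = 0.113) or 3 (adjusted p = 0.11) of the Notch3-/- group or replicate 2 of the Notch4-/- group (adjusted p = 0.08). At 1435665_at the 3 Notch3-/- arrays stood at -4.63, -4.76 and -4.76 after 6 hr, and the 3 Notch4-/- arrays at 0.80, 0.89 and 0.56. The line difference there was -5.47 at 6 hr, -0.41 in air, -0.13 at 24 hr and 0.51 at 48 hr (adjusted p = 0.272). The largest line difference of the exposures lay at 6 hr in each of these probe sets, at -1.71 for Trim30d 1438716_at, -4.92 for Trim34a and -5.28 for Trim12a. At 48 hr Trim34a differed by 0.06 (adjusted p = 0.937) and Trim12a by -0.07 (adjusted p = 0.917).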

How the results depend on the processing

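The count of 140 probe sets called at 48 hr became 53 at an adjusted p below 0.01, 11 with ANOVA and Tukey's test, 76 with the 24 knockout arrays alone, 9 with the 6 compared arrays alone, 776 with array weights and 52 after another quantile normalization. It was 42 to 160 with 1 array left out. The 308 calls over air, 6 hr and 24 hr became 168 at 0.01, 185 with a difference of at least 0.5 and 1071 with array weights. The 8 departures of the 48 hr line difference from its mean in other exposures include 4 Trim probe sets without a 48 hr call. The count of 8 became 4 at 0.01, 5 with the 24 knockout arrays, 84 with array weights and 5 after quantile normalization. It was 3 to 15 with 1 array left out. The 0 differences of the 48 hr ozone responses became 35 with array weights and 0 to 6 with 1 array left out (6 without Notch4-/- replicate 2).

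The 6 called interferon-stimulated genes became 3 at 0.01, 0 with Tukey's test, 3 with the 24 knockout arrays, 1 with the 6 arrays, 11 with array weights and 2 after quantile normalization, and 2 to 7 with 1 array left out. The 25 called genes on chromosome 17 became 6 with Tukey's test, 4 with the 6 arrays, 63 with array weights and 12 after quantile normalization, and 13 to 27 with 1 array left out. The 57 probe sets called the same way over other exposures became 33 at 0.01, 37 with the 24 knockout arrays, 146 with array weights and 33 after quantile normalization, and 26 to 55 with 1 array left out. The causes were not tested.

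The uncalled Notch4 probe set 1436901_at turned to 0.0314 and Trim12a at 48 hr to 0.0260 with array weights. With 1 array left out, Notch4 1436901_at ran from -0.0739 to 0.1285, Trim12a from -0.2074 to 0.1388 and Trim34a from -0.0981 to 0.1822. No other 48 hr difference or departure recomputed for a named probe set changed direction; other probe sets of a named gene were not recomputed. Called named probe sets past the threshold in all 17 settings were both Notch3 probe sets, Notch4 1449146_at, Dynll1, Zfp945 and Zfp994.

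Same-numbered arrays of the 2 lines were not treated as pairs, and whether their mice shared an exposure group was not tested. Correlations of their deviations were 0.15, -0.046 and -0.056, beside -0.085 to 0.123 between arrays of unlike number. With the number as a replicate block 155 probe sets were called, 131 of the 140 among them.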
